A study of Arabidopsis thaliana with 13 samples.

Results

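The genes of starch synthesis and breakdown were followed in sorted root cells of Arabidopsis thaliana with and without the homeobox transcription factor WOX5. The 36 members, of 33560 genes measured, were chosen by function: plastid import of glucose phosphate, plastid phosphoglucomutase, ADP-glucose pyrophosphorylase, starch synthases with the granule-targeting protein PTST, branching enzymes, debranching enzymes, and the kinases, phosphatases, amylases, transferases, transporter and phosphorylases of starch breakdown. The rule that names them uses no measured value, but the list was chosen with earlier results of these data known. RNA came from Col-0 seedling roots that were protoplasted 5 days after germination and sorted by fluorescence. The groups were QC-marker cells (WOX5::GFP) of the wox5-1 mutant (n = 4 libraries) and of the wild type (WT, n = 3), then CEI-marker cells (carrying CYCD6::GUS-GFP, a reporter of the cyclin CYCD6;1) of wox5-1 (n = 3) and of WT (n = 3). QC stands for the quiescent centre, the rarely dividing centre of the stem cell niche of the root, and CEI for the cortex/endodermis initial beside it. A population is what its reporter marks, and the QC reporter is driven by the promoter of the gene that is mutated in wox5-1. FPKM counts fragments per kilobase of a transcript for each M (mega) of mapped fragments, so levels of different genes are given per length.

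Starch is made in plastids. Glucose 6-phosphate is imported or formed there and turned into glucose 1-phosphate, ADP-glucose pyrophosphorylase activates it to ADP-glucose, and synthases, branching enzymes and debranching enzymes build the granule. Breakdown starts with phosphorylation of the granule surface, after which amylases and debranching enzymes release maltose and short glucans for export. In the root tip, starch is known above all from the amyloplasts of the columella, where it acts as the weight of gravity sensing. WOX5 is known to hold back columella differentiation in the stem cells next to the quiescent centre, and staining of starch granules is the usual readout of that differentiation.

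The WT QC-marker libraries were shallow, with an estimated 5.68 to 8.08 M fragments, against 18.2 to 36.9 M in the other 10 libraries. Depth therefore cannot be told apart from genotype within QC-marker cells, nor from population within the wild type. WOX5 had between 0 and 0.114 FPKM in wox5-1 QC-marker cells and 163 to 262 FPKM in WT QC-marker cells, against 0 to 0.207 FPKM in wox5-1 and 8.82, 27.3 and 0 FPKM in WT CEI-marker cells (libraries 1, 3 and 4). Of the 10 QC and niche markers, 5 were higher and 0 lower in QC-marker than in CEI-marker cells of wox5-1 at a limma adjusted p under 0.05 (WIP5, WIP4, PLT1, PLT2 and PLT3), beside 2.64% of all genes tested higher and 1.67% lower. WOX5, AGL42 and MYB56 had log2 differences below 0 (-0.0054, -0.36 and -0.54) with overlapping groups. WIP5 and WIP4, zinc finger genes, were at 33.7 FPKM or more in the 7 QC-marker libraries and at 7.68 FPKM or less in the 6 CEI-marker libraries. Between the genotypes, the 10 QC and niche markers, WOX5 among them, all had lower values in wox5-1 QC-marker cells (median -0.98). Their sum was 379 to 582 FPKM in wox5-1 and 961 to 1048 FPKM in WT QC-marker cells, of which WOX5 alone gave 163 to 262 FPKM in WT. Between the genotypes, 1 of the 10 was called lower and 0 higher, beside 0.380% and 3.05% of all genes tested. Without overlap, 6 were lower and 0 higher, beside 5.82% and 17.8%. WOX5, the mutated gene, was among these 6 and had the lowest difference, at -7.71. CYCD6;1 itself did not separate the populations, with 4.56 to 5.75 FPKM in wox5-1 QC-marker cells and 0 to 2.07 FPKM in WT QC-marker cells, against 0.748 to 5.47 FPKM in wox5-1 and 1.90 to 22.7 FPKM in WT CEI-marker cells. Of 5 CEI and young ground tissue markers, CYCD6;1 among them, 0 were called between the populations in either genotype. In wox5-1, 3 were higher and 2 lower in QC-marker cells by the sign of the difference, and in the wild type 1 and 4. Without overlap, 2 were lower and 0 higher in wox5-1, beside 9.72% and 26.5% of all genes tested. Of the other root cell types, epidermis and root hair markers summed to 94.2 to 504 FPKM in the QC-marker and 51.1 to 352 FPKM in the CEI-marker libraries. Stele markers summed to 10.9 to 46.9 FPKM and 20.2 to 52.2 FPKM. Endodermis markers summed to 15.7 to 318 FPKM and 9.83 to 246 FPKM, highest in library 1 of each WT group. In WT QC-marker cells they were at 318 FPKM in library 1, against 15.7 and 43.3 FPKM in libraries 2 and 3.

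Libraries 2 of WT QC-marker cells, 4 of WT CEI-marker cells and 1 of wox5-1 CEI-marker cells stood apart. The first had 19783 genes listed at 0, where the others had 5385 to 12971, and 6 of the 36 members were among them. In the second, 9 columella and root cap markers summed to 2428 FPKM, where the 5 remaining CEI-marker libraries had 23.9 to 269 FPKM, and the root cap cellulase gene CEL5 alone reached 1955 FPKM. In the third, 9 green tissue markers summed to 14500.0 FPKM, where the 5 remaining ones had 12.0 to 56.3 FPKM. Several results that rest on these libraries are given with and without them. The numbers of the CEI-marker libraries are names only.

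Summed over the 36 members, starch transcripts were more abundant in QC-marker cells of both genotypes than in all but 1 of the CEI-marker libraries. The sum was 1255, 1635, 1254 and 927 FPKM in the wox5-1 QC-marker libraries and 758, 1890.0 and 1072 FPKM in the WT QC-marker libraries. In CEI-marker cells it was 557, 417 and 389.8 FPKM in wox5-1 and 419, 323 and 1660.0 FPKM in the wild type. Thus 5 of the 6 CEI-marker libraries lay below all 7 QC-marker libraries, and the sixth was the WT library 4 with its high root cap markers. BAM1, a plastid beta-amylase, had the highest mean FPKM of the members in every group, although LSF2 and ISA3 exceeded it in WT QC-marker library 2. It had 305, 324, 289 and 267 FPKM in wox5-1 QC-marker cells and 221, 174 and 219.6 FPKM in WT QC-marker cells, against 188, 212 and 158 FPKM in wox5-1 and 164, 82.7 and 764 FPKM in WT CEI-marker cells. At the other end, the importer gene GPT2 and the amylase gene BAM5 stayed below 1 FPKM in the 13 libraries. BAM3, the main beta-amylase of leaves, exceeded 1 FPKM only in wox5-1 CEI-marker library 1, at 12.1 FPKM, the library with the high green tissue markers. None of these 3 genes reached 1 FPKM in 3 libraries, the filter for testing, so 33 members were tested.

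**Figure D1:**
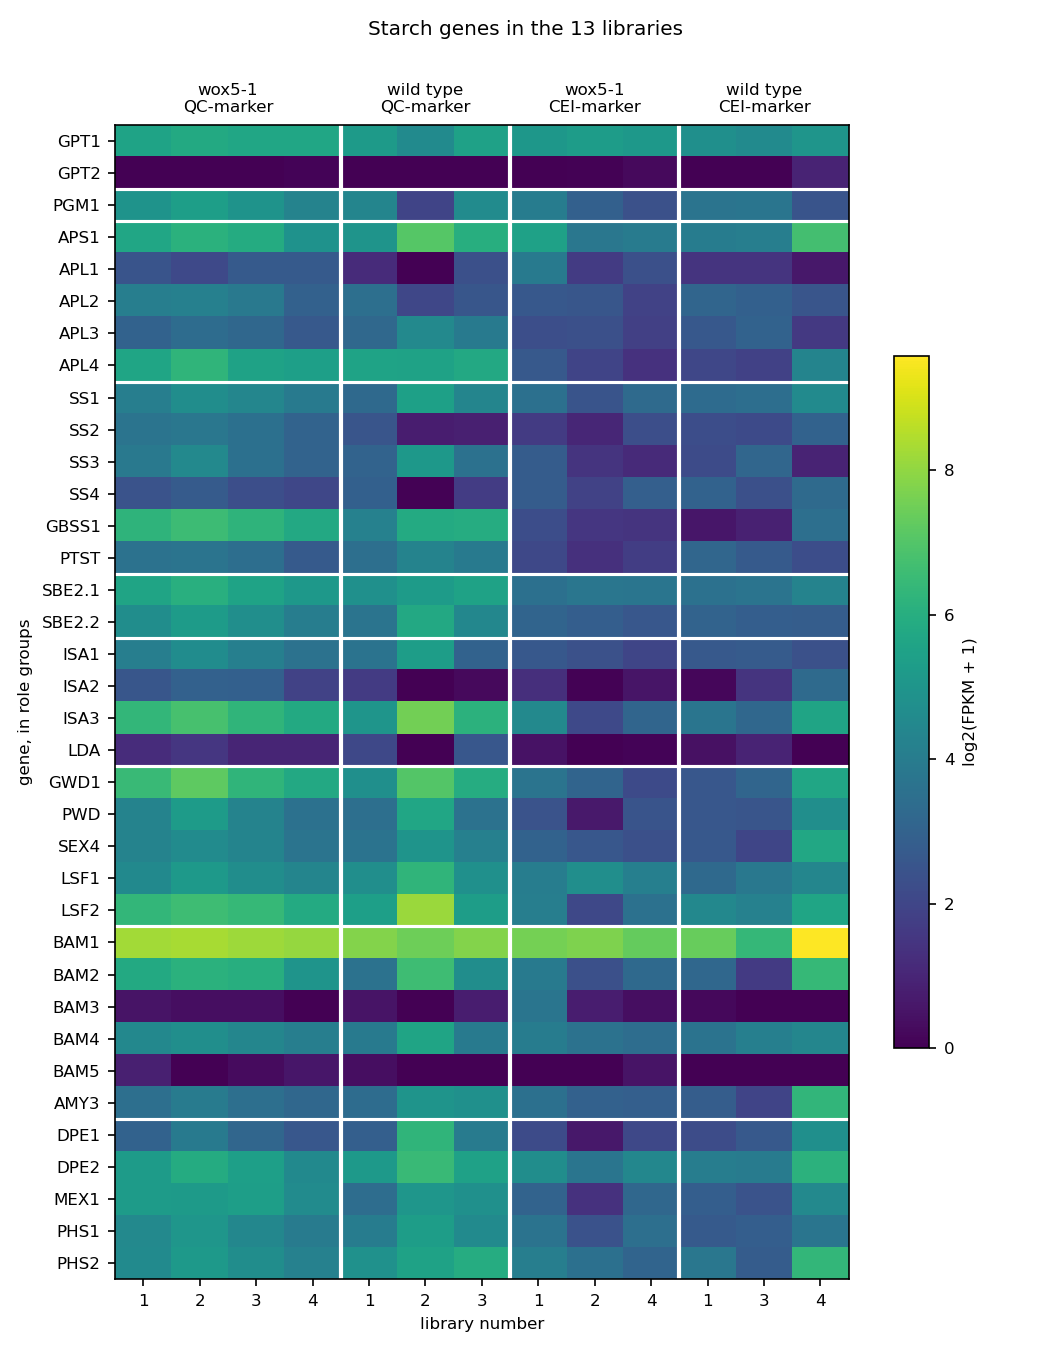
Level of each of the 36 members (rows, in role groups) as log2(FPKM + 1) in each of the 13 libraries (columns, by group). Most members are brighter in the 7 QC-marker libraries than in 5 of the 6 CEI-marker libraries, and WT CEI-marker library 4 differs from its group. BAM1 is the brightest row except in WT QC-marker library 2, where LSF2 and ISA3 are brighter.

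QC-marker cells of wox5-1 held more RNA of 8 starch genes than CEI-marker cells of the same mutant. The 8 were GBSS1, APL4, SBE2.1, SBE2.2, ISA3, GWD1, LSF2 and MEX1, so they covered ADP-glucose supply, amylose synthesis, branching, debranching, glucan phosphorylation and dephosphorylation, and maltose export. None of the 33 members tested was lower in this comparison (limma on log2(FPKM + 1), Benjamini-Hochberg adjusted p under 0.05 over 21574 genes; 20 members were higher and 0 lower at an unadjusted p under 0.05). Of all genes tested, 2.64% were higher by the same rule and 1.67% lower. The median difference of the 33 members was 1.59 on the log2 scale, against 0.30 over all genes tested, and 31 members had a positive difference. In these sorted pools, fewer cells of a type and less RNA per cell cannot be told apart.

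GBSS1 (AT1G32900), the granule-bound synthase that makes amylose, differed most. It had 74.3, 94.6, 74.7 and 54.5 FPKM in wox5-1 QC-marker cells, against 3.78, 1.85 and 1.74 FPKM in wox5-1 CEI-marker cells. The 4 QC-marker libraries all lay far above the 3 CEI-marker libraries. The difference was 4.47 on the log2 scale (SE 0.65, limma adjusted p = 0.0024). APL4 (AT2G21590), a large, regulatory subunit of ADP-glucose pyrophosphorylase known from sink tissues, had 48.4, 75.3, 44.8 and 41.4 FPKM in wox5-1 QC-marker cells, against 5.36, 2.89 and 1.58 FPKM in wox5-1 CEI-marker cells. Again the groups did not overlap, and the difference was 3.70 on the log2 scale (SE 0.55, limma adjusted p = 0.00263). GBSS1 and APL4 passed the test in each of 13 fits that left out 1 library and under each of 9 other settings.

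The branching enzymes SBE2.1 and SBE2.2 place the side branches of amylopectin. SBE2.1 (AT2G36390) had 47.5, 64.6, 46.3 and 33.2 FPKM in wox5-1 QC-marker cells, against 10.8, 12.6 and 12.3 FPKM in wox5-1 CEI-marker cells. Its difference was 1.89 on the log2 scale (SE 0.35, limma adjusted p = 0.0102). SBE2.2 (AT5G03650) was lower in both populations, at 25.2, 37.5, 25.7 and 15.6 FPKM in wox5-1 QC-marker cells and 7.51, 6.24 and 5.14 FPKM in wox5-1 CEI-marker cells. Its groups were also separate, with a difference of 1.84 (SE 0.49, limma adjusted p = 0.0468). SBE2.1 no longer passed without wox5-1 QC-marker library 2, and SBE2.2 passed in 3 of the 13 fits. SBE2.2 was also lost with a pseudocount of 0.1 and under median-of-ratios scaling.

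Of the debranching enzymes, ISA3 (AT4G09020), an isoamylase of starch breakdown, was the most abundant, at 80.0, 109, 75.4 and 55.7 FPKM in wox5-1 QC-marker cells and 21.8, 3.34 and 7.64 FPKM in wox5-1 CEI-marker cells. The lowest QC-marker library still exceeded the highest CEI-marker library (difference 3.05, SE 0.68, limma adjusted p = 0.0240). GWD1 (AT1G10760), the dikinase that phosphorylates the granule surface and so opens breakdown, had 88.5, 146, 76.4 and 53.8 FPKM in wox5-1 QC-marker cells, against 11.9, 7.42 and 3.47 FPKM in wox5-1 CEI-marker cells. It was the second most abundant member in the mutant QC-marker cells, and its difference was 3.46 (SE 0.70, limma adjusted p = 0.0149). LSF2 (AT3G10940), a phosphatase that removes such phosphate groups, had 79.1, 96.7, 85.2 and 57.7 FPKM in wox5-1 QC-marker cells, against 16.2, 3.24 and 10.98 FPKM in wox5-1 CEI-marker cells. Its difference was 3.05 (SE 0.65, limma adjusted p = 0.0195), with no overlap of the groups. MEX1 (AT5G17520), the maltose exporter of the plastid envelope, had 37.3, 36.5, 40.1 and 23.5 FPKM in wox5-1 QC-marker cells, against 7.39, 1.60 and 8.18 FPKM in wox5-1 CEI-marker cells. Its difference was 2.57 (SE 0.60, limma adjusted p = 0.0285), again without overlap. These 4 genes no longer passed without wox5-1 CEI-marker library 2 or 4 or without wox5-1 QC-marker library 2, and ISA3, LSF2 and MEX1 also did not without wox5-1 QC-marker library 1 or 3. MEX1 was also lost under median-of-ratios scaling.

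**Figure D2:**
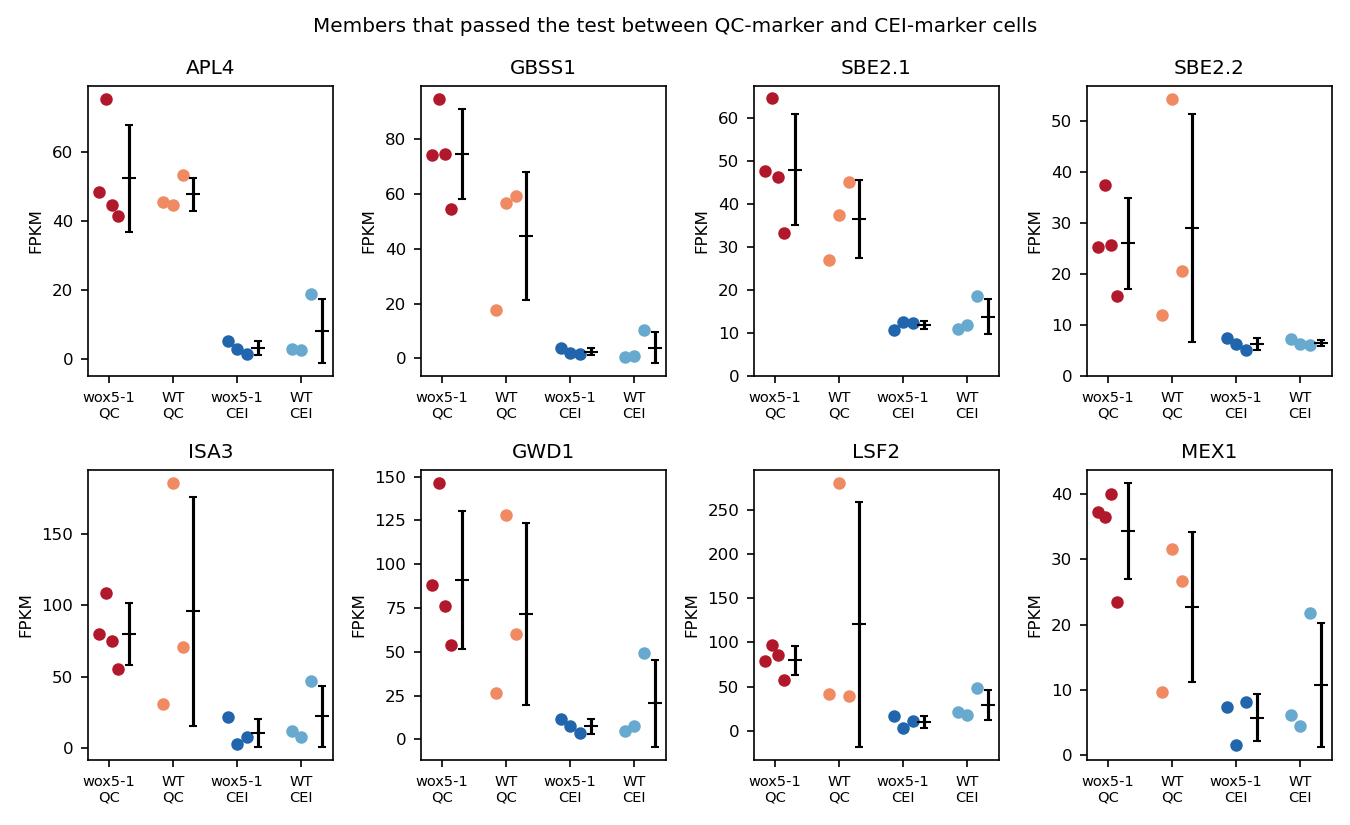
FPKM of the 8 members that passed the test between QC-marker and CEI-marker cells of wox5-1, in each library (points) with the mean and SD of each group (bars), QC-marker groups at the left. In wox5-1 the 4 QC-marker points lie above the 3 CEI-marker points in each of the 8 panels, and the highest WT CEI-marker point of APL4, GBSS1, SBE2.1, ISA3, GWD1, LSF2 and MEX1 is library 4.

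Most of the remaining members also had separate groups in this comparison. Of the 33 members, 27 were higher in every wox5-1 QC-marker library than in any wox5-1 CEI-marker library and 0 lower, where 26.5% of all genes tested were higher without overlap and 9.72% lower. PGM1, the plastid phosphoglucomutase, had 29.0, 40.5, 29.4 and 18.7 FPKM in wox5-1 QC-marker cells, against 15.3, 6.64 and 4.25 FPKM in wox5-1 CEI-marker cells (difference 1.76, SE 0.64, limma adjusted p = 0.135). The 6 members whose groups overlapped were APS1, APL1, SS4, LSF1, AMY3 and DPE2. APL1, a large subunit known from leaves, and SS4, a synthase of granule initiation, had differences below 0, at -0.15 and -0.13. The fits that left out 1 library gave 2 to 15 members, with 2 without wox5-1 QC-marker library 2, 3 without wox5-1 CEI-marker library 2 or 4, 4 without wox5-1 QC-marker library 1 or 3, and 15 without WT QC-marker library 2. A fit on the wox5-1 libraries alone gave 25 members, beside 26.8% of all genes tested there.

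The start regions of 2 of these genes are shown because their expression differed and because they hold motifs of the kinds of factor named in the title of the study. WUSCHEL-type homeodomain proteins are known to bind TTAATGG, bZIP factors of the TGA class to which PERIANTHIA belongs bind TGACG, and CACGTG is the G-box of bZIP and bHLH factors. Capitals mark these letters, on either strand, in the 250 bases before the annotated start, 5′ to 3′ on the strand of the gene, from RefSeq (TAIR10.1). The sequences are SBE2.1 at chr2:15263961-15264210 (plus strand) and APL4 at chr2:9238046-9238295 (plus strand), and no other annotated gene overlaps them.
SBE2.1: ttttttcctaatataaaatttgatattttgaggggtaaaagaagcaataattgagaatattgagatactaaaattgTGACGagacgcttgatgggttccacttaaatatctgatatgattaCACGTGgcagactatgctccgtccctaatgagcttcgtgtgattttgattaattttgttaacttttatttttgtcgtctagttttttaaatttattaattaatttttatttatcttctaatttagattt
APL4: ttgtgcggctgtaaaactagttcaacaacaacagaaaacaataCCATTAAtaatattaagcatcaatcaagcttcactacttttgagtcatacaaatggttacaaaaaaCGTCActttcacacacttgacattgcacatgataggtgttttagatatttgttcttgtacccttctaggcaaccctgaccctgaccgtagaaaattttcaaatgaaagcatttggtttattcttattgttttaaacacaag
Counted back from the start, SBE2.1 holds TGACG from -174 and CACGTG from -129. APL4 holds TTAATGG from -207 and TGACG from -141, both on the opposite strand. Over both strands, CACGTG stood in the same window of 10 of the 36 members (27.8%), against 6.46% of 27561 protein-coding genes. TGACG stood in 11 members (30.6%), against 18.5% of the genes, and TTAATGG in 4 members (11.1%), against 6.98%. CACGTG and TGACG can share bases. GBSS1 holds none of the 3 motifs in its window. A match describes letters only, and binding was not measured.

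In the wild type, 1 member passed the same comparison of QC-marker with CEI-marker cells. GBSS1 had 17.6, 56.8 and 59.3 FPKM in WT QC-marker cells, against 0.497, 0.853 and 10.3 FPKM in WT CEI-marker cells. The groups did not overlap, although CEI-marker library 4 came close to QC-marker library 1. The difference was 3.67 on the log2 scale (SE 0.69, limma adjusted p = 0.0373). By this rule 0.250% of all genes tested were higher and 0.107% lower. GBSS1 passed in 3 of 13 fits without 1 of the libraries. It was lost with a pseudocount of 0.1, with no filter, under both other scalings, in a fit on the WT libraries alone and with library weights.

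APL4 lay just outside the threshold in the wild type. Its level was 45.5, 44.7 and 53.3 FPKM in WT QC-marker cells, against 3.09, 2.62 and 18.8 FPKM in WT CEI-marker cells. The QC-marker libraries were close to each other and well above the CEI-marker libraries (difference 2.87, SE 0.59, limma adjusted p = 0.0541). SBE2.1 had 26.9, 37.4 and 45.1 FPKM in WT QC-marker cells, against 10.9, 11.9 and 18.5 FPKM in WT CEI-marker cells (difference 1.35, SE 0.37, limma adjusted p = 0.183). SBE2.2 had 12.0, 54.3 and 20.6 FPKM in WT QC-marker cells, against 7.22, 6.20 and 6.08 FPKM in WT CEI-marker cells (difference 1.74, SE 0.52, limma adjusted p = 0.224). Neither branching enzyme gene had overlapping groups. In all, 9 members were higher without overlap and 0 lower (APL3, APL4, GBSS1, PTST, SBE2.1, SBE2.2, ISA1, LSF1 and PHS1), where 5.98% of all genes tested were higher without overlap and 4.07% lower. The median difference was 1.13, against -0.10 over all genes tested, and 28 of the 33 members had a positive difference. That median was 0.61 without QC-marker library 2 and 1.66 without CEI-marker library 4.

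The other WT values show the weight of single libraries. ISA3 had 31.2, 186 and 71.1 FPKM in WT QC-marker cells, against 12.2, 8.18 and 47.1 FPKM in WT CEI-marker cells. GWD1 had 26.3, 128 and 60.1 FPKM in WT QC-marker cells, against 5.00, 7.67 and 49.4 FPKM in WT CEI-marker cells. LSF2 had 41.0, 279.9 and 39.5 FPKM in WT QC-marker cells, against 21.0, 17.5 and 48.1 FPKM in WT CEI-marker cells. In each of the 3 genes QC-marker library 2 was the highest of its group, CEI-marker library 4 was the highest of its group, and the groups overlapped through library 4. MEX1, at 9.72, 31.6 and 26.7 FPKM in WT QC-marker cells and 6.19, 4.46 and 21.7 FPKM in WT CEI-marker cells, did the same.

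Leaving out the 3 libraries that stood apart left 2 libraries in every group except wox5-1 QC-marker cells. Without them, 7 members were higher and 0 lower in WT QC-marker cells than in WT CEI-marker cells, beside 3.35% of all genes tested called in either direction. They were APL4 (3.71), GBSS1 (4.33), SBE2.1 (1.53), ISA3 (2.13), LDA (1.65), GWD1 (2.50) and PHS2 (2.11), with log2 differences in parentheses. In wox5-1 the same omission gave 26 members higher, beside 31.8% of all genes tested. The differences of QC-marker from CEI-marker cells did not differ detectably between the genotypes for any member in the 13 libraries (limma adjusted p over 21574 genes, 0 members called, 3 at an unadjusted p under 0.05; 0.0232% of all genes tested were called). Without the 3 libraries that stood apart, LSF2 was called, beside 14.3% of all genes tested.

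**Figure D3:**
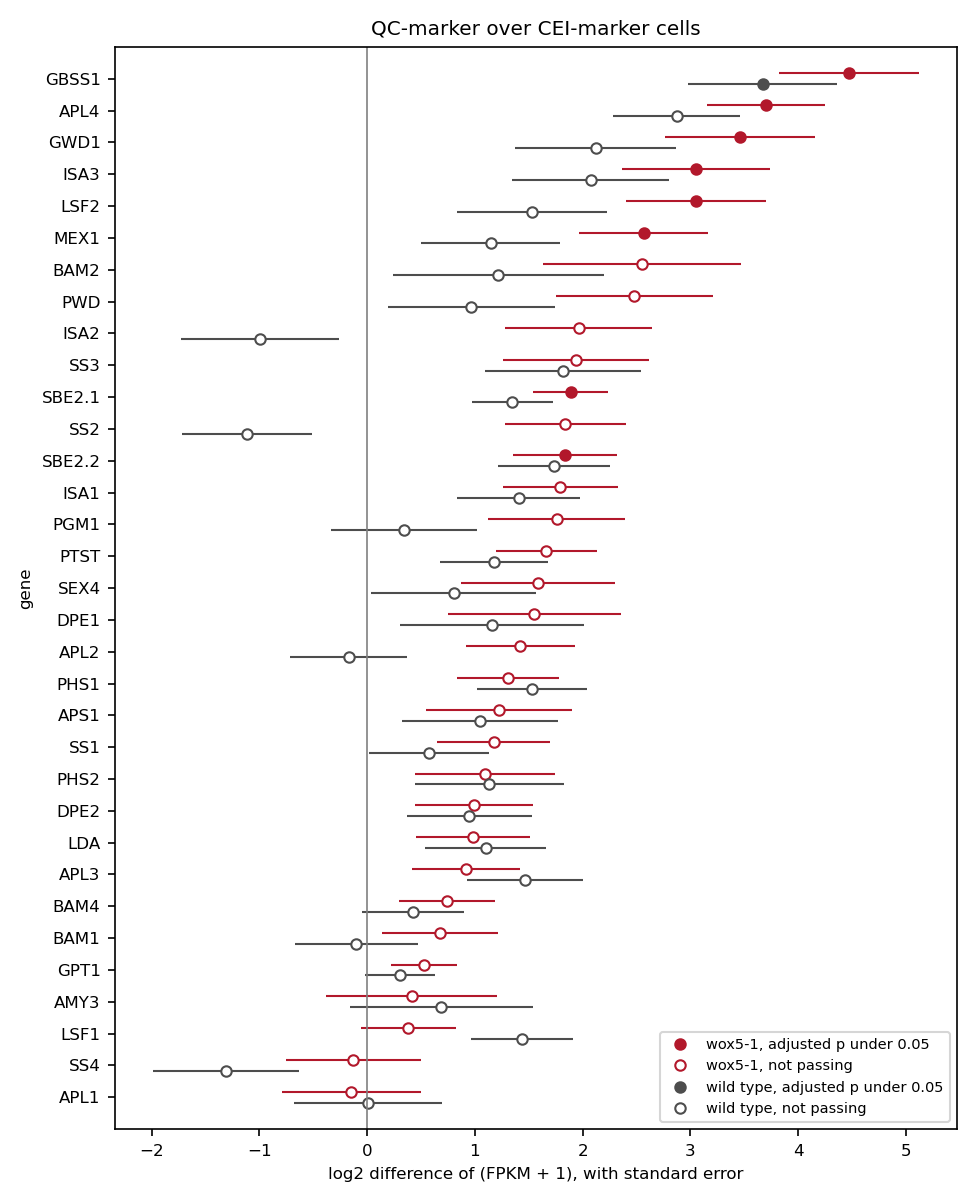
Difference of QC-marker from CEI-marker cells on the log2(FPKM + 1) scale, with its standard error, for the 33 members tested, in wox5-1 (red) and in the wild type (grey); filled points have a limma adjusted p under 0.05. Of the wox5-1 points 31 and of the WT points 28 lie above 0, and APL1, APL2, SS2, ISA2 and BAM1 lie on opposite sides of 0 in the genotypes.

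The make-up of ADP-glucose pyrophosphorylase transcripts also differed between the populations, outside 1 library. The enzyme pairs the small subunit APS1 with large subunits APL1 to APL4. APL4 made up 63.5, 71.7, 62.0 and 70.0% of the summed large-subunit FPKM in the QC-marker libraries of wox5-1 and 69.3, 64.2 and 69.9% in those of WT. It made up 18.6, 20.6 and 14.6% in wox5-1 CEI-marker cells and 17.4, 14.5 and 71.8% in WT CEI-marker cells. WT CEI-marker library 4 thus lay just above the highest QC-marker library, and the other CEI-marker libraries lay below the lowest. The rest of the WT CEI-marker sum came mainly from APL2, at 43.3 and 37.0%, and APL3, at 29.7 and 39.1%, in libraries 1 and 3. In wox5-1 CEI-marker library 1, APL1 made up 49.8%, and APL1 and green tissue markers were both at their highest there.

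APS1 (AT5G48300), the catalytic small subunit, had 49.6, 68.5, 57.9 and 28.4 FPKM in wox5-1 QC-marker cells and 29.7, 132 and 63.1 FPKM in WT QC-marker cells. In CEI-marker cells it had 43.2, 12.8 and 14.8 FPKM in wox5-1 and 15.4, 16.0 and 105 FPKM in the wild type. Library 1 of wox5-1 and library 4 of the wild type reached the level of the QC-marker libraries, and the groups overlapped in both genotypes. The differences were 1.23 in wox5-1 (SE 0.68, limma adjusted p = 0.320) and 1.05 in the wild type (SE 0.72, limma adjusted p = 0.545). APL3, the other large subunit known from sink tissues, ranged from 5.34 to 9.48 FPKM in wox5-1 QC-marker cells and from 8.46 to 21.8 FPKM in WT QC-marker cells, against 2.54 to 4.09 FPKM in wox5-1 and 2.03 to 7.08 FPKM in WT CEI-marker cells.

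**Figure D4:**
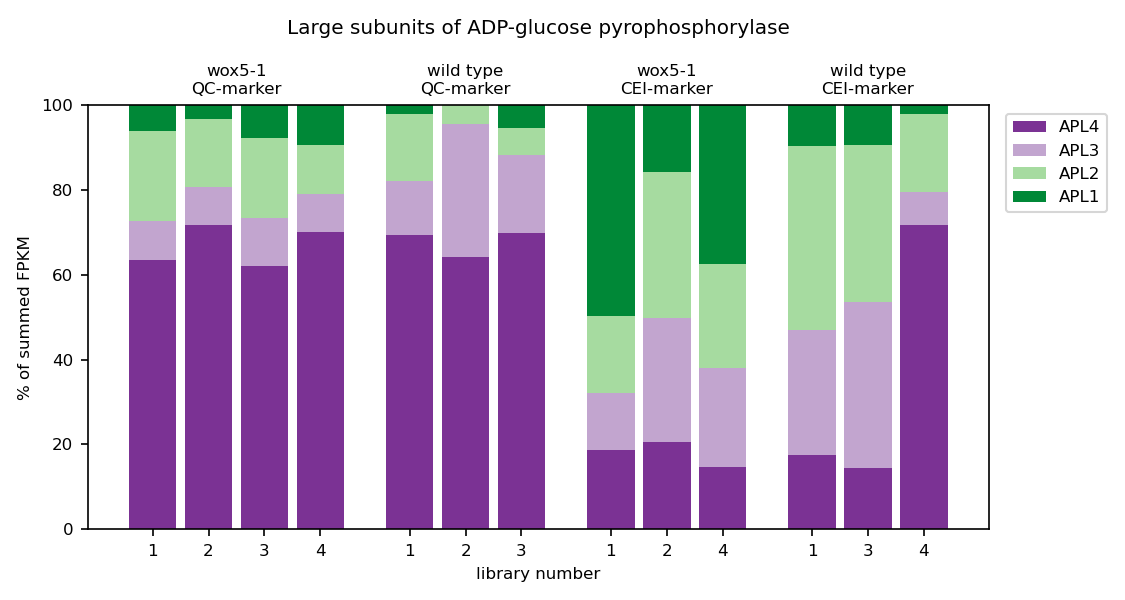
Share of each large subunit gene, APL1 to APL4, in the summed large-subunit FPKM of each library (stacked bars, in %). APL4 makes up 62.0 to 71.7% in the QC-marker libraries, 14.5 to 20.6% in 5 CEI-marker libraries and 71.8% in WT CEI-marker library 4.

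Among the starch synthases the same division showed for GBSS1. Its share of the summed synthase FPKM was 61.7, 59.1, 62.3 and 63.2% in the QC-marker libraries of wox5-1 and 39.0, 42.5 and 63.9% in those of WT, against 13.3, 15.5 and 7.83% in wox5-1 and 2.07, 3.25 and 20.6% in WT CEI-marker cells. The 6 CEI-marker libraries lay below the 7 QC-marker libraries without exception. PTST (AT5G39790), the protein that brings GBSS1 to the granule, had 11.2, 12.0, 9.99 and 5.64 FPKM in wox5-1 QC-marker cells and 10.3, 18.6 and 14.0 FPKM in WT QC-marker cells. In CEI-marker cells it had 3.18, 1.49 and 2.38 FPKM in wox5-1 and 8.05, 5.59 and 3.83 FPKM in the wild type. It was higher in QC-marker cells without overlap within each genotype, at an adjusted p of 0.0597 in wox5-1 and 0.381 in the wild type (limma). In contrast, BAM1 held most of the summed beta-amylase FPKM in the libraries of both populations, between 54.8 and 93.0%.

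Between wox5-1 and WT QC-marker cells no member passed the threshold, where 3.05% of all genes tested were higher and 0.380% lower in the mutant. The mutant libraries had an estimated 24.9 to 36.9 M fragments and the WT libraries 5.68 to 8.08 M. Genotype and depth thus cannot be told apart in this comparison, least of all for genes near 0 in WT. At an unadjusted p under 0.05, 2 members were higher and 0 lower. The median difference of the 33 members was 0.06 on the log2 scale, against 0.32 over all genes tested, with 19 positive and 14 negative, and it was -0.29 without WT library 1 and 0.42 without WT library 2. Under median-of-ratios scaling the members' median was -0.10 with 13 positive and 20 negative, and under quantile normalization -0.05 with 15 and 18, while the median of all genes moved by -0.13 and -0.39. GBSS1 and APL4 did not separate by genotype in these cells, with differences of 0.89 (SE 0.65) and 0.10 (SE 0.55). The QC and niche markers, the mutated gene WOX5 among them, had lower values in the mutant cells, with 1 of the 10 called, as given above. Their part in this comparison was not tested.

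SS2 (AT3G01180), a synthase that elongates amylopectin chains, came closest. It had 11.8, 12.9, 10.5 and 7.22 FPKM in wox5-1 QC-marker cells, against 4.69, 0.699 and 0.770 FPKM in WT QC-marker cells. Every mutant library lay above every WT library, and the difference was 2.14 (SE 0.56, limma adjusted p = 0.0524). ISA2 (AT1G03310), the subunit that works with ISA1 in trimming amylopectin, had 4.97, 6.86, 6.58 and 2.73 FPKM in wox5-1 QC-marker cells, against 2.21, 0 and 0.178 FPKM in WT QC-marker cells. Its groups were separate too (difference 1.95, SE 0.68, limma adjusted p = 0.131), with WT library 2 listing it at 0. SS2 passed in 2 of 13 fits without 1 of the libraries, and with a pseudocount of 5 or a filter at 5 FPKM. Without the 3 libraries that stood apart, SS2 (1.84, limma adjusted p = 0.0534) and LDA (-1.17, limma adjusted p = 0.0570) did not pass, beside 8.86% of all genes tested called.

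APL1 and APL2 completed the 4 members with the smallest p. APL1 (AT5G19220) had 4.55, 3.34, 5.57 and 5.56 FPKM in wox5-1 QC-marker cells, against 1.27, 0 and 4.01 FPKM in WT QC-marker cells. APL2 (AT1G27680) had 16.3, 16.96, 13.6 and 6.85 FPKM in wox5-1 QC-marker cells, against 10.4, 3.08 and 4.86 FPKM in WT QC-marker cells. Both had overlapping groups, with differences of 1.34 (SE 0.64, limma adjusted p = 0.269) and 1.08 (SE 0.51, limma adjusted p = 0.257). GPT1 (AT5G54800), which imports glucose 6-phosphate into plastids, had 46.3, 56.0, 49.7 and 49.98 FPKM in wox5-1 QC-marker cells, against 35.8, 23.0 and 43.9 FPKM in WT QC-marker cells. With SS2, ISA2 and BAM1 it was 1 of 4 members that were higher in the mutant without overlap, while 0 were lower, where 17.8% of all genes tested were higher without overlap and 5.82% lower.

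In CEI-marker cells, too, 0 members were called between wox5-1 and WT, where 0.0185% of all genes tested were higher and 0.00927% lower. At an unadjusted p under 0.05, 1 member was higher (APL1) and 1 lower (LSF2). The median difference was -0.51, against 0.08 over all genes tested, and 28 of the 33 members had a negative difference. The direction of the median held when each library was left out, with a range of -0.85 to -0.10, and the value nearest 0 came without WT library 4. Without the 3 libraries that stood apart, several members turned positive, among them BAM1 (0.64), AMY3 (0.54), BAM2 (0.41) and SEX4 (0.14), while most stayed negative.

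LSF2 had 16.2, 3.24 and 10.98 FPKM in wox5-1 CEI-marker cells, against 21.0, 17.5 and 48.1 FPKM in WT CEI-marker cells. PTST, given above, and DPE1 (AT5G64860), a plastid glucanotransferase, followed in p, DPE1 with 3.59, 0.521 and 3.27 FPKM in wox5-1 CEI-marker cells, against 3.69, 5.41 and 26.0 FPKM in WT CEI-marker cells. These 3 and the dikinase gene PWD were lower in each mutant library than in any WT library, where 3.81% of all genes tested were lower without overlap. The differences were -1.50 for LSF2 (SE 0.70, limma adjusted p = 0.619), -1.01 for PTST (SE 0.50, limma adjusted p = 0.630) and -1.59 for DPE1 (SE 0.86, limma adjusted p = 0.639). Without the 3 libraries that stood apart, PTST (-1.41, limma adjusted p = 0.0369) and LSF2 (-1.50, limma adjusted p = 0.0342) passed, beside 21.9% of all genes tested.

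APL1 ran the other way, with 14.3, 2.195 and 4.07 FPKM in wox5-1 CEI-marker cells, against 1.70, 1.72 and 0.519 FPKM in WT CEI-marker cells. The highest value came from library 1, with its green tissue markers, and the difference was 1.49 (SE 0.69, limma adjusted p = 0.619) with that library and 0.85 without it. GPT1, at 32.2, 38.0 and 33.9 FPKM in wox5-1 CEI-marker cells and 26.3, 23.3 and 30.8 FPKM in WT CEI-marker cells, was the other tested member that was higher in the mutant without overlap, where 7.19% of all genes tested were. Its difference was 0.37 (SE 0.32, limma adjusted p = 0.775). In QC-marker cells GPT1 was also higher in the mutant without overlap, as 17.8% of all genes tested were, by 0.59 (SE 0.30, limma adjusted p = 0.297). How many genes were so in both populations was not counted.

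**Figure D5:**
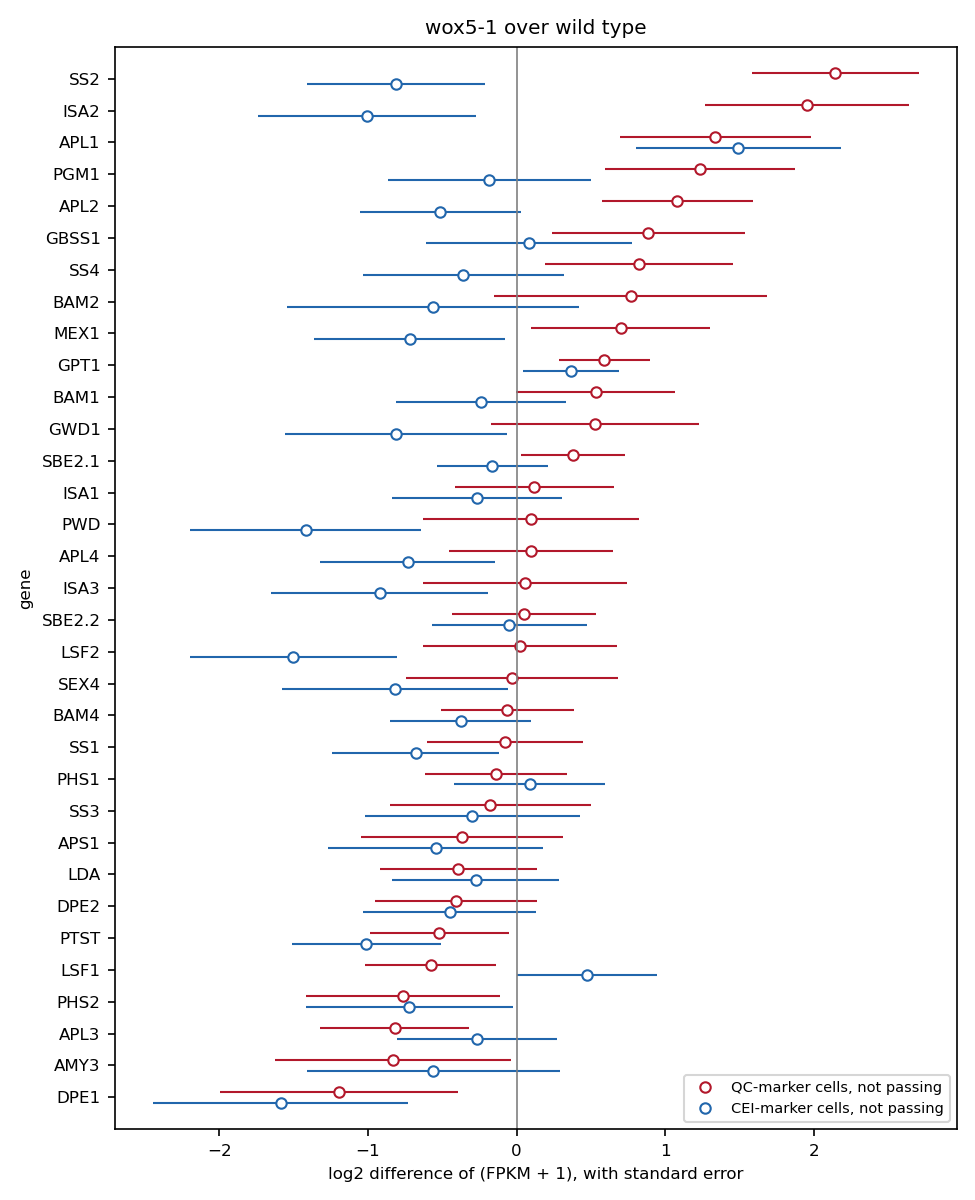
Difference of wox5-1 from the wild type on the log2(FPKM + 1) scale, with its standard error, for the 33 members tested, in QC-marker cells (red) and CEI-marker cells (blue). No point has an adjusted p under 0.05, SS2 and ISA2 lie highest in QC-marker cells, and 28 of the 33 points of CEI-marker cells lie below 0.

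SS2 and ISA2 also had the smallest p for a difference between the mutant's effects in the populations. In CEI-marker cells SS2 had 2.14, 1.048 and 3.99 FPKM in wox5-1, against 3.83, 3.50 and 6.999 FPKM in the wild type. ISA2 had 1.48, 0.0361 and 0.447 FPKM in wox5-1, against 0.125, 1.70 and 8.90 FPKM in the wild type. These CEI-marker groups overlapped. The effect in QC-marker cells exceeded that in CEI-marker cells by 2.96 for SS2 (SE 0.82, limma adjusted p = 0.238) and by 2.96 for ISA2 (SE 1.00, limma adjusted p = 0.330), and for neither was the difference past the threshold. APL2 followed with 1.60 (SE 0.74, limma adjusted p = 0.448), at 5.25, 4.87 and 2.67 FPKM in wox5-1 and 7.69, 6.71 and 4.83 FPKM in the wild type in CEI-marker cells. LSF1, a phosphatase relative needed for starch breakdown, followed with -1.05 (SE 0.65, limma adjusted p = 0.533). It had 22.4, 34.1, 25.1 and 19.7 FPKM in wox5-1 and 25.4, 76.5 and 26.9 FPKM in the wild type in QC-marker cells, and 15.5, 25.8 and 16.5 FPKM in wox5-1 and 8.75, 13.1 and 20.03 FPKM in the wild type in CEI-marker cells.

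The remaining members are given as means ± SD over the libraries of a group. The synthases SS1 and SS3, which extend short and long chains, had 19.0 ± 4.85 and 13.2 ± 6.13 FPKM in wox5-1 QC-marker cells (n = 4) and 23.6 ± 17.1 and 17.2 ± 14.3 FPKM in WT QC-marker cells (n = 3). In CEI-marker cells they had 8.04 ± 3.07 and 2.95 ± 2.57 FPKM in wox5-1 and 14.0 ± 7.58 and 4.11 ± 3.51 FPKM in the wild type (n = 3 each). SS4 did not separate the populations, at 4.34 ± 1.08 FPKM in wox5-1 QC-marker cells, 5.01 ± 2.03 FPKM in wox5-1 and 6.65 ± 2.50 FPKM in WT CEI-marker cells. In WT QC-marker cells it had 6.64, 0.0511 and 2.26 FPKM. ISA1, the partner of ISA2, had 17.03 ± 5.26 FPKM in wox5-1 and 19.5 ± 17.7 FPKM in WT QC-marker cells, against 4.12 ± 1.098 FPKM in wox5-1 and 5.11 ± 0.765 FPKM in WT CEI-marker cells. LDA, the limit dextrinase, was low throughout, between 0 and 5.09 FPKM.

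On the breakdown side, PWD, which adds further phosphate after GWD1, had 21.4 ± 11.4 FPKM in wox5-1 and 23.9 ± 22.9 FPKM in WT QC-marker cells, against 3.24 ± 2.29 FPKM in wox5-1 and 11.9 ± 12.1 FPKM in WT CEI-marker cells. SEX4, the main phosphoglucan phosphatase, had 18.4 ± 4.77 FPKM in wox5-1 and 19.7 ± 9.62 FPKM in WT QC-marker cells, against 5.40 ± 1.57 FPKM in wox5-1 and 20.4 ± 28.2 FPKM in WT CEI-marker cells. The SD above the mean comes from library 4, at 52.9 FPKM, against 5.28 and 2.996 FPKM in libraries 1 and 3. The plastid alpha-amylase AMY3 had 10.4, 15.01, 10.2 and 8.19 FPKM in wox5-1 and 9.53, 30.1 and 26.9 FPKM in WT QC-marker cells, against 10.6, 6.89 and 6.43 FPKM in wox5-1 and 6.04, 2.92 and 77.9 FPKM in WT CEI-marker cells. It did not separate the populations in either genotype. BAM2 ranged from 29.7 to 69.1 FPKM in wox5-1 and from 11.1 to 95.8 FPKM in WT QC-marker cells, against 4.10 to 14.1 FPKM in wox5-1 and 2.08 to 84.3 FPKM in WT CEI-marker cells. BAM4, a beta-amylase relative without activity, lay between 9.83 and 47.5 FPKM over the 13 libraries.

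Maltose and short glucans are handled by DPE2 in the cytosol, DPE1 in the plastid and the phosphorylases PHS1 in the plastid and PHS2 in the cytosol. DPE2 (AT2G40840) had 37.5, 58.9, 41.9 and 22.3 FPKM in wox5-1 and 33.96, 88.2 and 43.2 FPKM in WT QC-marker cells, against 25.2, 12.4 and 20.5 FPKM in wox5-1 and 15.9, 14.9 and 70.7 FPKM in WT CEI-marker cells. The groups overlapped in both genotypes. DPE1 had 7.16, 14.3, 7.94 and 5.12 FPKM in wox5-1 and 6.38, 76.2 and 14.9 FPKM in WT QC-marker cells. PHS1 had 22.4 ± 7.04 FPKM in wox5-1 and 25.8 ± 12.4 FPKM in WT QC-marker cells, against 8.76 ± 3.85 FPKM in wox5-1 and 8.07 ± 3.75 FPKM in WT CEI-marker cells, and it was higher in QC-marker cells without overlap in both genotypes. PHS2 had 25.2 ± 7.51 FPKM in wox5-1 and 44.3 ± 15.9 FPKM in WT QC-marker cells, against 11.4 ± 4.26 FPKM in wox5-1 and 32.9 ± 41.0 FPKM in WT CEI-marker cells, where library 4 had 80.0 FPKM.

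Many members shared the library in which they were highest or lowest within a group. In wox5-1 QC-marker cells, library 2 was the highest of the 4 for 31 of the 33 members tested (93.9%), against 38.1% of all genes tested, and library 4 was the lowest for 30 (90.9%), against 40.2%. Among the 6 CEI-marker libraries, WT library 4 was the highest for 22 of the 33 members (66.7%), against 18.8% of all genes tested. In WT QC-marker cells, library 2 was the highest of the 3 for 20 members (60.6%), against 29.1% of all genes tested, and the lowest for 10 (30.3%), against 56.3%. Chloroplast-encoded genes summed to 0.142 to 0.566% of the FPKM in wox5-1 and 0.336 to 1.89% in WT QC-marker cells, against 1.75 to 3.38% in wox5-1 and 0.869 to 1.98% in WT CEI-marker cells.

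Root cap genes were high in several of the libraries in which starch genes were high. The 9 columella and root cap markers summed to 402, 371, 423 and 321 FPKM in wox5-1 and 206, 1075 and 799 FPKM in WT QC-marker cells, against 239.9, 201 and 269 FPKM in wox5-1 and 120.2, 23.9 and 2428 FPKM in WT CEI-marker cells. Between QC-marker and CEI-marker cells of wox5-1, 3 of the 9 were called higher and 0 lower: FEZ, a root cap stem cell factor (4.60), the auxin transporter PIN3 (3.20) and the peptide gene CLE40 (2.75, log2 differences), beside 2.64% of all genes tested called higher and 1.67% lower. SMB, ACR4 and PIN7 had positive differences and were not called. The other 3 markers had negative differences that were not called, BRN1 at -1.24, BRN2 at -1.51 and CEL5 at -1.46, and CEL5 was lower without overlap. In the wild type 0 of the 9 were called, with 2 higher and 1 lower at an unadjusted p under 0.05. SMB, a factor of root cap maturation, had 87.5, 87.3, 86.8 and 55.3 FPKM in wox5-1 and 11.4, 46.3 and 85.5 FPKM in WT QC-marker cells, against 12.1, 0.137 and 21.1 FPKM in wox5-1 and 3.45, 0.0622 and 63.8 FPKM in WT CEI-marker cells. The part of root cap cells in the starch results was not tested.

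Of 17 further starch genes outside the 36 members, 13 were tested, and 2 were higher and 0 lower in QC-marker than in CEI-marker cells of wox5-1 (limma adjusted p under 0.05), beside 2.64% of all genes tested called higher and 1.67% lower. These were AT3G55760 (3.57, SE 0.65) and AT4G32190 (2.31, SE 0.48), for which the annotation used gives no symbol. AT4G32190 was also the one called between the genotypes in QC-marker cells, beside 3.05% of all genes tested called higher and 0.380% lower, and it had 3.59, 10.2, 3.25 and 2.39 FPKM in wox5-1 and 0, 0.628 and 0 FPKM in the wild type (difference 2.15, SE 0.48, limma adjusted p = 0.0272). Of 19 genes of sucrose cleavage and sugar phosphate supply, 17 were tested, and SUS3, a sucrose synthase, was the one called between the populations of wox5-1. It is 5.88% of those tested, which is near the background and is not a result about the list. SUS3 had 27.2, 49.3, 36.9 and 19.4 FPKM in wox5-1 QC-marker cells, against 1.68, 0.0199 and 0.655 FPKM in wox5-1 CEI-marker cells (difference 4.29, SE 0.96, limma adjusted p = 0.0236). CINV2, a cytosolic invertase gene, was the one called between genotypes in QC-marker cells, at 5.25, 1.36, 3.01 and 3.86 FPKM in wox5-1 and 0.245, 0 and 0 FPKM in the wild type (difference 1.94, SE 0.50, limma adjusted p = 0.0499). It too is 5.88% of those tested, near the background of that comparison. For AT4G32190 and CINV2, the WT values at or near 0 came from the shallow WT QC-marker libraries.

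An annotated gene overlaps 12 of the 36 members, on the same strand for LSF1 and PHS2 and on the opposite strand for the others. Strand cannot separate the fragments of the first pair from those of their neighbours, and for the others no source used here gives the strand of counting. Among the 8 members called, APL4 and SBE2.1 are concerned, each with 1 gene on the opposite strand, and GBSS1, SBE2.2, ISA3, GWD1, LSF2 and MEX1 are not.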

How the data were processed

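RNA was measured in 13 libraries of sorted root cells, made with a low-input SMARTer kit, per the labels' protocols. The authors deposited 1 table of FPKM for 33560 genes, made with Cufflinks (no version named), per the submitters' processing notes. No source used here gives the aligner, genome build, annotation or strand of counting.

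Libraries were grouped by title. Columns of CEI-marker libraries name a group and a number that does not match the titles' replicate numbers. Depth was estimated from the steps of low FPKM values, of which 33.1 to 45.8% lay near whole fragments, so it is approximate, and no count test was run.

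Differences were tested with limma 3.58.1 under R 4.3.3, 2-sided, on log2(FPKM + 1), with the variance trend, in 1 fit of 13 libraries with a mean per group (9 residual degrees of freedom, 5.28 prior). The 21574 genes with at least 1 FPKM in at least 3 libraries were tested, with Benjamini-Hochberg adjustment over them, and called at an adjusted p under 0.05. The scale understates changes of low genes. The fit was tried on simulated data that gave each gene the same SD in every library. That trial could not show the effect of unequal spread between the groups, which these data have. Libraries of 1 group are biological replicates, per the labels.

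Given per library are members called, the 4 with the smallest p in each comparison and the most abundant of each role. Members, gene lists and tests were chosen with earlier results of these data known. Overlaps and promoter windows came from RefSeq (TAIR10.1), which may differ from the authors' build. The start region of 1 further gene is not reported here.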

Additional observations from a re-analysis of the deposited data

Results flagged for a closer look

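Of the 36 members in the 1 group of 4 libraries, wox5-1 QC-marker cells, a single value lay outside the rest of its group. GPT2 had 0.0653 FPKM in library 4 and was listed at 0 in the other 3 libraries, so the gap made up the whole range (ratio 1.0). Chance gives such a value in about 1 of 20 groups. The level is far below the 1 FPKM used to filter genes.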

How the results depend on the processing

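The count of members called between QC-marker and CEI-marker cells of wox5-1 was 8. It was 25 with the compared groups alone, 19 with library weights by group (17.5% of all genes tested), 26 without the 3 libraries that stood apart, an alternative chosen after seeing the data, and 6 to 9 with pseudocounts of 0.1 and 5, no filter, a filter at 5 FPKM, median-of-ratios scaling and quantile normalization. Leaving out 1 library gave 2 to 15. In the wild type the count of 1 was 0 with a pseudocount of 0.1, no filter, either scaling, the compared groups alone and library weights, 2 with a pseudocount of 5, and 7 without the 3 libraries. Leaving out 1 library gave 0 to 3, with 3 without CEI-marker library 4. Between genotypes, the count of 0 in QC-marker cells was 1 with a pseudocount of 5 and with a filter at 5 FPKM, and 0 to 1 when 1 library was left out. In CEI-marker cells it was 2 without the 3 libraries and 0 in each fit without 1 library. The difference of effects gave 1 member without the 3 libraries, LSF2 (2.44). Where counts changed through weights or fewer libraries, the cause was not tested.

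The members' medians moved by less than the spread between replicates under each other setting. That spread was taken from the members' median log2(FPKM + 1) per library. It was wide in the wild type, with 3.625, 5.299 and 4.402 in the QC-marker and 2.831, 2.765 and 4.295 in the CEI-marker libraries. Staying within it therefore says little about stability. Leaving out 1 library gave -0.29 to 0.42 and -0.85 to -0.10 for wox5-1 against the wild type in QC-marker and CEI-marker cells, 0.61 to 1.66 and 1.46 to 1.83 for QC-marker against CEI-marker cells in the wild type and in wox5-1, and 0.14 (without WT CEI-marker library 4) to 0.82 (without library 1) for the difference of effects, whose value was 0.54. The scalings moved the median of all genes by at most -0.40 (QC-marker against CEI-marker cells of wox5-1, median-of-ratios). Values under other settings were compared only for members called or among the 4 with the smallest p in a comparison. Of these values, 474 kept their side of the threshold, 48 were no longer called, 10 became called and 0 changed sign. Those that kept their side include members that stayed uncalled. Because the members were chosen by small p, the lack of sign changes does not measure stability.

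The replicate numbers of the QC-marker libraries do not pair them: same-numbered libraries correlated at 0.03, 0.09 and -0.06. With these numbers as a block, 0 members were called and the median was 0.21. No paired analysis was possible for the other comparisons because the CEI-marker columns carry no label numbers. The median SD over genes on the log2 scale was 0.26 in wox5-1 QC-marker cells and 0.92 in the shallow WT QC-marker group, and 0.55 in wox5-1 and 0.68 in WT CEI-marker cells; the part of depth in it was not tested. Genes listed at 0 may be failed estimates.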
